A study of Mus musculus with 270 samples.

Results

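The kidney transcriptome of male C57BL/6J mice was compared between 20 months (20 M, n = 7) and 14 months (14 M, n = 9), and these 16 libraries were taken from 45 kidney libraries and 270 libraries in the series by the age in their labels. Kidneys of both ages came from wild-type mice kept as 1 cohort, with 1 kidney library per mouse, and the labels name no treatment. Whole organs were pulverized, so cortex and medulla were sampled together. Values are reads per gene divided by a size factor of the library, called normalized counts here. The recovered totals lay between 3809071 and 8878724 reads at 14 M and between 4176085 and 9010499 reads at 20 M. Reads were not marked with molecular identifiers. The libraries carried transcripts of several parts of the nephron. *Lrp2* lay between 11201 and 28769 normalized counts at 14 M (median 25640) and between 2638 and 18863 at 20 M (median 9745), and it encodes the endocytic receptor megalin of the proximal tubule. *Umod* lay between 308 and 6782 normalized counts at 14 M (median 4756) and between 2142 and 6316 at 20 M (median 4953), and it encodes uromodulin of the thick ascending limb. *Nphs1* lay between 78.2 and 197 normalized counts at 14 M (median 118) and between 59.5 and 171 at 20 M (median 113), and it encodes nephrin of the podocyte. The lowest 14 M value of *Lrp2* and of *Umod* was in replicate 1.

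Some kidney libraries also held brain transcripts. Reads of a list of 7 brain genes, scaled to 1000000 reads of the library, came to 3189, 458 and 518 in replicates 1, 2 and 9 at 14 M and to 875 and 1089 in replicates 1 and 2 at 20 M, against 40.2 to 211 in the other libraries. The mice were split into 2 sets, A and B, by the sign of the first principal component of their heart libraries (30.5% of the variance). A cut by sign gives 2 sets in any data. At each age the lower replicate numbers, which follow the order of the labels, were in set A and the higher ones in set B. Set A held 5 mice at 14 M and 3 at 20 M, and set B held 4 and 4. Of the libraries with brain transcripts, replicates 1 and 2 of both ages were in set A and replicate 9 of 14 M in set B. The sets thus also differed in brain reads, and the part of these reads in the counts within each set was not tested. The labels do not say what the sets are, and counts within each set are given with the lists.

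The kidney filters plasma at the glomerulus, and the proximal tubule then takes back most of the filtered glucose, phosphate, amino acids and protein through carriers and endocytic receptors. This segment draws its energy mainly from fatty acids in mitochondria and peroxisomes. After damage, tubule cells are known to lower these carriers, to express injury proteins such as KIM-1 and lipocalin-2, and to release chemokines and matrix, and older mouse kidneys commonly collect immune cells and scar. These are background facts and were not measured here.

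Between 20 M and 14 M, 3817 of 16839 tested genes passed an adjusted p of 0.05 in limma, which is 22.7% of them. Of these, 2119 were higher at 20 M (12.6%) and 1698 were lower (10.1%). The median change of all tested genes was 0.01 on the log2 scale. The higher genes had the wider changes, with 424 at a log2 change of 2 or more against 36 lower genes at -2 or less. The normalized counts of both ages did not overlap for 565 genes that were higher (3.36%) and 196 that were lower (1.16%) at 20 M. Without the libraries that held brain transcripts 5224 genes passed, 2833 higher and 2391 lower. Within set A 1380 genes passed with 5 and 3 libraries, and within set B 2901 passed with 4 and 4. In whole tissue, fewer cells of a type and less RNA per cell cannot be told apart, and this holds for every result that follows. A fixed rule named 142 genes, and further members of the lists are given as examples chosen after their values were seen.

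The gene lists were read against these shares. Most lists kept their counts within 3 members when the libraries that held brain transcripts were left out. The carriers of the proximal tubule then had 36 lower members of 39 in place of 35, and tubule injury had 26 higher of 28 in both. Larger shifts were seen in lower members of fatty acid oxidation (29 in place of 21), oxidative phosphorylation (30 in place of 18) and the distal nephron (11 in place of 5), and in higher members of B and plasma cells (12 in place of 16), matrix (42 in place of 46) and cell cycle (23 in place of 27). Over all tested genes 2391 were lower in this setting in place of 1698, and 2833 were higher in place of 2119. The list counts were not scaled to this wider change.

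**Figure D1:**
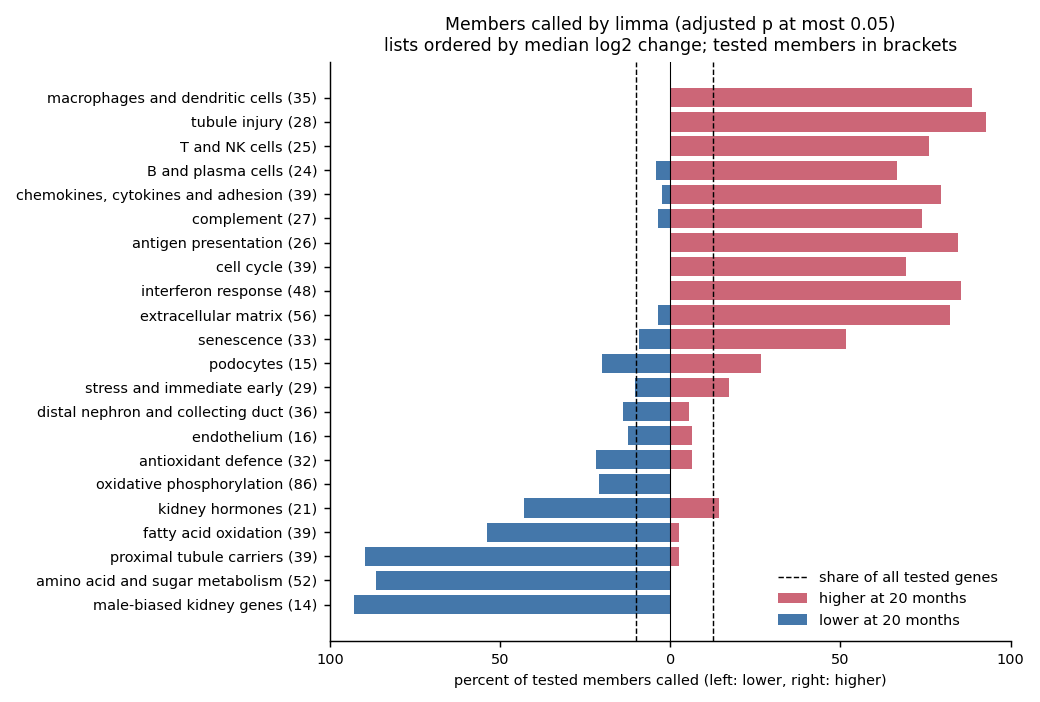
Percent of the tested members of 22 gene lists that were called by limma between 20 M and 14 M; bars to the right are members higher at 20 M, bars to the left members lower at 20 M, and the dashed lines mark the 12.6% and 10.1% of all tested genes. Immune, injury, matrix and cell cycle lists extend to the right, and lists of tubule carriers and metabolism extend to the left.

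Among the genes with a log2 change of at least 1 and at least 50 normalized counts in either group, those with the smallest p were all separated between ages. *Mrc1* lay between 36 and 72.9 normalized counts at 14 M (median 57.8) and between 243 and 536 at 20 M (median 376). It encodes the mannose receptor of resident macrophages and had a log2 change of 2.67 ± 0.18 (SE; adjusted p = 1.66e-14). The 7 values at 20 M were all above the 9 values at 14 M. The same held for *Ctsc*, a lysosomal peptidase, *Cd44*, a hyaluronan receptor, *Vcam1*, an adhesion molecule, *Anxa3*, an annexin, *Dcdc2a*, a doublecortin-domain gene, *Spp1*, osteopontin, and *Pros1*, the anticoagulant protein S. Their log2 changes were *Ctsc* (2.06), *Cd44* (2.53), *Vcam1* (3.00), *Anxa3* (2.03), *Dcdc2a* (2.34), *Spp1* (2.78) and *Pros1* (1.28). Among the lower genes, *Aspa* lay between 1144 and 2027 normalized counts at 14 M (median 1618) and between 304 and 1128 at 20 M (median 546), and it encodes aspartoacylase, which splits N-acetylaspartate. It had a log2 change of -1.52 ± 0.17 (SE; adjusted p = 1.07e-08). Every 20 M value was also below every 14 M value for *Chrna4* (-1.40), *Dhtkd1* (-1.54), *Serpinf2* (-1.82), *Cndp1* (-1.71), *Aspdh* (-2.33) and *BC024386* (-1.83). *Dhtkd1* takes part in lysine breakdown, *Serpinf2* encodes the plasmin inhibitor and *Cndp1* a dipeptidase for carnosine. The genes with the widest changes, named after their values were seen, were *Gpnmb*, a glycoprotein of lipid-laden macrophages, *Lcn2* and *Cxcl5* among the higher and *Slc22a7* among the lower. *Gpnmb* lay between 2.99 and 17.4 normalized counts at 14 M (median 6.19) and between 127 and 697 at 20 M (median 218), and it had a log2 change of 5.06 ± 0.57 (SE; adjusted p = 9.40e-09).

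Carriers of the proximal tubule were lower at 20 M as a group. Of 41 listed genes 39 were tested, 35 were lower, 1 was higher and 3 did not pass, and the median log2 change was -1.11 against 0.01 for all genes. *Slc34a1* lay between 12447 and 25324 normalized counts at 14 M (median 20529) and between 2582 and 16934 at 20 M (median 6516), and it encodes the main sodium-phosphate cotransporter. Its log2 change was -1.62 ± 0.28 (SE; adjusted p = 1.86e-05), and 1 value at 20 M, in replicate 4, lay within the 14 M range. *Slc22a7* lay between 558 and 1118 normalized counts at 14 M (median 815) and between 7.44 and 479 at 20 M (median 91.3), and it encodes an organic anion transporter. The estimated log2 change was -3.05 ± 0.46 (SE; adjusted p = 2.12e-06), and the ages did not overlap. The lowest value was 7.44, in replicate 1 at 20 M. The listed phosphate carrier *Slc34a3* (-1.98), the glucose carrier *Slc5a2* (-1.43), the amino acid carriers *Slc6a19* (-1.53) and *Slc7a13* (-1.95), the drug and anion carriers *Slc22a6* (-1.44), *Slc22a8* (-1.51), *Slc22a30* (-1.75), *Slc17a3* (-1.40) and *Slco1a1* (-2.63) and the neutral amino acid carrier *Slc6a20b* (-1.44) fell. The endocytic receptors *Lrp2* (-1.51) and *Cubn* (-1.40) fell as well. *Slc22a30* lay between 2168 and 3351 normalized counts at 14 M (median 2421) and between 285 and 1647 at 20 M (median 724), and the ages did not overlap. *Slc5a2*, *Slc6a19*, *Slc22a6* and *Cubn* did not pass within set A.

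Members of the list did not all move down. The glucose carrier *Slc5a1*, which serves the late proximal tubule, had a median of 879 normalized counts at 14 M and 964 at 20 M, a log2 change of 0.12 ± 0.17 (SE; adjusted p = 0.705). The sulfate carrier *Slc13a1* had a log2 change of 0.44 ± 0.23 (SE; adjusted p = 0.18), and the water channel *Aqp1* had a log2 change of -0.86 ± 0.37 (SE; adjusted p = 0.0875). The efflux pump *Abcc4* was the member that rose, with a log2 change of 0.72 ± 0.19 (SE; adjusted p = 0.00315). Within set A 18 carriers passed as lower, with a median change of -1.24, and within set B 32 passed, with a median of -1.15. The transcription factor *Hnf4a* (-1.11), which drives tubule and liver genes and was named after its values were seen, fell too, and *Pax8* had a log2 change of -0.19 ± 0.23 (SE; adjusted p = 0.631). *Abcc4* did not pass within set A.

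**Figure D2:**
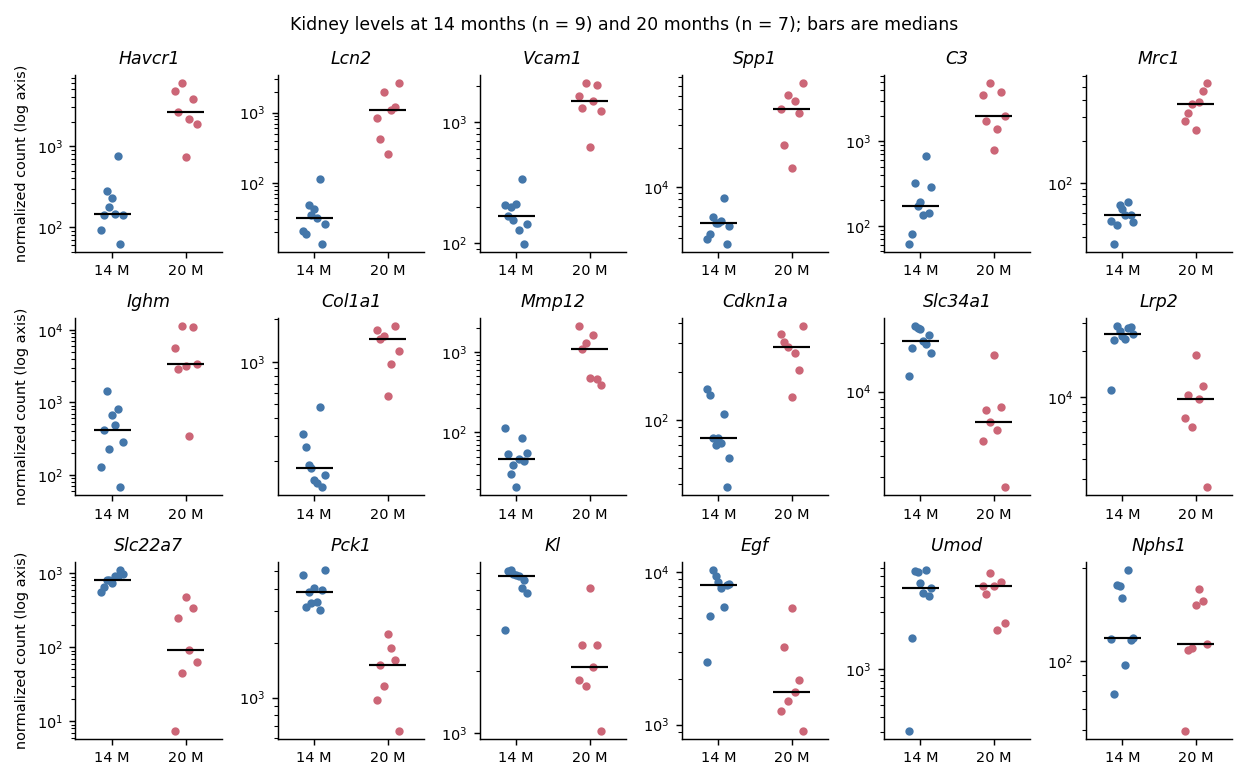
Normalized counts of 18 genes in each kidney library at 14 M (n = 9, blue) and 20 M (n = 7, red), on log axes, with the median as a bar; 1 point is 1 mouse. Injury, immune and matrix genes sit higher at 20 M, carriers, *Pck1*, *Kl* and *Egf* sit lower, and *Umod* and *Nphs1* overlap between ages.

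Metabolic genes of the same segment were lower, to differing degrees. Of 52 tested genes of amino acid and sugar metabolism 45 fell and 7 did not pass, with a median log2 change of -1.12. *Pck1* lay between 3062 and 5109 normalized counts at 14 M (median 3849) and between 656 and 2253 at 20 M (median 1513), and it encodes the enzyme that commits carbon to gluconeogenesis. This was a log2 change of -1.51 ± 0.20 (SE; adjusted p = 2.67e-07), and the ages did not overlap. Others that fell were *G6pc* (-1.80), glucose-6-phosphatase, *Aadat* (-2.14) and *Kmo* (-1.40) of the kynurenine pathway, *Ivd* (-1.14) of leucine breakdown, *Gatm* (-1.40) of creatine synthesis and *Miox* (-1.52) of inositol breakdown. The number that fell was 25 within set A and 41 within set B. *Miox* did not pass within set A.

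Of 39 tested genes of fatty acid oxidation 21 fell, 1 rose and 17 did not pass, with a median of -0.66. The peroxisomal oxidases *Acox2* (-1.62) and *Acox3* (-1.36) fell, as did the mitochondrial dehydrogenase *Hadh* (-0.97). *Ppara* lay between 440.0 and 1207 normalized counts at 14 M (median 681) and between 237 and 744 at 20 M (median 325), and it encodes the receptor that switches these genes on. In limma its log2 change was -0.97 ± 0.30 (SE; adjusted p = 0.014), and the ages overlapped. *Ppargc1a*, a coactivator for mitochondrial genes, fell, with a log2 change of -0.40 ± 0.12 (SE; adjusted p = 0.0141). The rise was that of *Cyp4a14*, a fatty acid hydroxylase, with a log2 change of 1.87 ± 0.54 (SE; adjusted p = 0.00862), while its relative *Cyp4a12a* fell, with a log2 change of -2.17 ± 0.29 (SE; adjusted p = 3.24e-07). The number of members that fell was 10 without replicate 7 of 20 M, 10 with quantile normalization, 3 within set A and 22 within set B. *Acox2*, *Ppara* and *Ppargc1a* did not pass within set A, and *Ppara*, *Ppargc1a* and *Cyp4a14* did not pass within set B. *Ppargc1a* did not pass with quantile normalization, and *Ppara* did not pass without the libraries that held brain transcripts. *Ppara* did not pass by edgeR without these libraries.

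Nuclear genes of the respiratory chain and citric acid cycle changed less. Of 86 tested 18 fell (20.9%, against 10.1% lower of all genes) and 68 did not pass, with a median log2 change of -0.42. The members that fell included *Sirt3* (-1.03), the mitochondrial deacetylase, and *Suclg2* (-0.86), *Idh2* (-0.78) and *Ogdh* (-0.81) of the cycle. The count was not steady. It was 9 without replicate 7 of 20 M, 8 with quantile normalization, 30 without replicate 1 of 14 M and 38 with the brain list as a covariate. It was 3 within set A and 15 within set B. The 13 genes of the mitochondrial genome were listed at 0 in every kidney library and were not tested. *Suclg2* and *Ogdh* did not pass within set A.

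Later segments of the nephron showed few calls in the main fit, and more that fell without the libraries that held brain transcripts. Of 36 tested genes of the loop, distal tubule and collecting duct 2 rose, 5 fell and 29 did not pass, with a median log2 change of -0.07, so 19.4% were called against 22.7% of all genes. *Slc12a1*, the salt cotransporter of the thick ascending limb, had a log2 change of -0.03 ± 0.19 (SE; adjusted p = 0.956). *Umod* had a log2 change of 0.22 ± 0.58 (SE; adjusted p = 0.856) and an estimate of -0.51 without the libraries that held brain transcripts. *Aqp2*, the vasopressin-regulated water channel, had a log2 change of 0.52 ± 0.22 (SE; adjusted p = 0.087). *Pvalb* lay between 100.3 and 614 normalized counts at 14 M (median 264) and between 5.39 and 82.1 at 20 M (median 46.3), and it encodes the calcium buffer parvalbumin of the distal convoluted tubule. The fit gave a log2 change of -3.01 ± 0.41 (SE; adjusted p = 3.83e-07), and the ages did not overlap. The thiazide-sensitive cotransporter *Slc12a3* (-0.93), its regulators *Klhl3* (-0.84) and *Wnk1* (-0.45) and the chloride exchanger *Slc26a4* (-0.84) of intercalated cells also fell. *Cldn16* (1.13), a claudin for magnesium, and *Aqp6* (0.62) rose. Of the distal convoluted tubule *Calb1* (-0.68) and *Trpm6* (-0.07) did not pass. Without the libraries that held brain transcripts 11 of the 36 fell, where 2391 of all 16839 genes were lower. The number that fell was 3 with quantile normalization, 2 within set A and 5 within set B. *Slc12a3*, *Wnk1*, *Slc26a4*, *Cldn16* and *Aqp6* did not pass within set A, and *Klhl3*, *Wnk1* and *Aqp6* did not pass within set B. *Slc12a3*, *Wnk1* and *Aqp6* did not pass with quantile normalization, and *Aqp6* did not pass by edgeR. *Wnk1* did not pass with the 14 and 20 M libraries alone, and *Wnk1* and *Aqp6* did not pass without a filter. *Wnk1* lost its call without any one of replicates 3, 5, 7, 8 and 9 of 14 M or 1, 2, 3, 5 and 6 of 20 M. *Aqp6* lost its call without any one of replicates 1, 2, 3, 8 and 9 of 14 M or 1, 3, 4, 5 and 7 of 20 M.

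Podocyte genes were split, and few endothelial genes were called. Of 15 tested podocyte genes 4 rose and 3 fell, and the median log2 change was 0.32. *Nphs1* had a log2 change of -0.15 ± 0.26 (SE; adjusted p = 0.759), while *Pdpn* (1.94) and *Kirrel* (1.30) rose and *Vegfa* (-0.84) fell. Other kidney cells make *Pdpn* and *Vegfa* too. Within set A 2 podocyte genes rose and 1 fell, and within set B 4 rose and 2 fell. Of 16 tested endothelial genes 1 rose and 2 fell, with a median of -0.09, so 18.8% were called against 22.7% of all genes. *Vwf* (1.04), von Willebrand factor, rose and *Kdr* (-1.01), a VEGF receptor, and *Ehd3* (-0.50), an endocytosis gene, fell, and *Pecam1* had a log2 change of -0.08 ± 0.14 (SE; adjusted p = 0.76). The number of endothelial genes that fell was 4 without replicate 4 of 20 M, 4 without replicate 1 of 14 M and 1 without any one of replicates 3, 4, 5 and 8 of 14 M or 1 and 5 of 20 M. It was 1 within set B. *Vwf*, *Kdr* and *Ehd3* did not pass within set A, and *Vwf* and *Ehd3* did not pass within set B. *Vwf* did not pass with quantile normalization, and *Ehd3* did not pass with the 14 and 20 M libraries alone. *Ehd3* lost its call without any one of replicates 3, 4, 5 and 8 of 14 M or 1 and 5 of 20 M.

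Genes known to mark injured tubules were higher at 20 M. Of 28 tested 26 rose, and the other 2 were *Itgb6* and *Plin2*. The median log2 change was 2.00, and 17 of the 26 did not overlap between ages, against 3.36% higher without overlap of all genes. *Havcr1* lay between 62.7 and 761 normalized counts at 14 M (median 148) and between 730.4 and 6084 at 20 M (median 2620), and it encodes KIM-1, a phosphatidylserine receptor of damaged proximal tubule. It had a log2 change of 3.91 ± 0.54 (SE; adjusted p = 5.04e-07), and the highest 14 M value, in replicate 7, was above the lowest 20 M value, in replicate 4. *Lcn2* lay between 13.6 and 113 normalized counts at 14 M (median 32) and between 255 and 2686 at 20 M (median 1091), and it encodes lipocalin-2, an iron-carrier protein. Its log2 change was 4.83 ± 0.51 (SE; adjusted p = 1.95e-09), and the ages did not overlap. *Vcam1* lay between 99.2 and 341 normalized counts at 14 M (median 166) and between 619 and 2115 at 20 M (median 1484), and it had a log2 change of 3.00 ± 0.24 (SE; adjusted p = 3.23e-12). *Spp1* lay between 3650 and 8245 normalized counts at 14 M (median 5228) and between 14020 and 63494 at 20 M (median 39707), and it had a log2 change of 2.78 ± 0.24 (SE; adjusted p = 2.63e-11). Neither of these overlapped between ages.

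The list also held genes of the epithelial cell state. The transcription factors *Sox9* (3.52) and *Sox4* (1.88), which are active in repairing tubules, rose. The keratins *Krt18* (1.79), *Krt19* (2.12) and *Krt20* (2.75), the intermediate filament gene *Vim* (1.97) and the acute-phase ferroxidase *Cp* (2.73) rose as well. *Krt20* lay between 3.59 and 48.5 normalized counts at 14 M (median 10.2) and between 33.6 and 202 at 20 M (median 98.6), and the 20 M values were spread over a wide range. Within set A 22 members passed and within set B 26, with medians of 2.03 and 2.01. *Krt20* did not pass within set A.

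**Figure D3:**
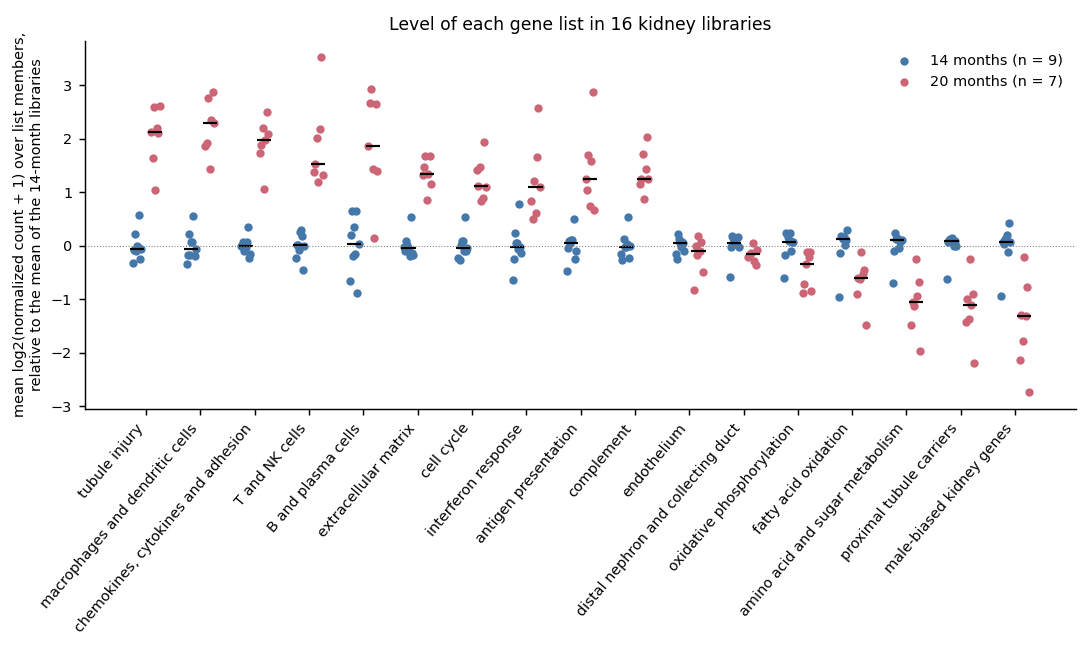
Level of 17 gene lists in each kidney library at 14 M (n = 9, blue) and 20 M (n = 7, red), as the mean of log2(normalized count + 1) over the tested members minus its mean over the 14 M libraries; bars are medians and 1 point is 1 library. The 20 M points of the injury list lie between 1.05 and 2.62 and those of the carrier list between -2.19 and -0.24.

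Markers of macrophages and dendritic cells rose at 20 M. Of 35 tested 31 rose and 4 did not pass, with a median log2 change of 2.34. Of these, 21 did not overlap between ages, against 3.36% higher without overlap of all genes. *Adgre1* lay between 33 and 87.1 normalized counts at 14 M (median 55.7) and between 160.4 and 683 at 20 M (median 399), and it encodes F4/80, a macrophage surface protein. The estimated log2 change was 2.72 ± 0.26 (SE; adjusted p = 1.80e-10), and the ages did not overlap. *Lyz2* lay between 37.3 and 314 normalized counts at 14 M (median 128) and between 660.4 and 2459 at 20 M (median 1157), and it encodes lysozyme. This was a log2 change of 3.49 ± 0.34 (SE; adjusted p = 3.36e-10), again with no overlap. The pan-leukocyte gene *Ptprc* (1.98), the chemokine receptors *Cx3cr1* (2.34) and *Ccr2* (1.80), the lipid sensor *Trem2* (2.91) and the oxidase subunit *Cybb* (2.19) rose. The plasmacytoid marker *Siglech* had a log2 change of 0.40 ± 0.47 (SE; adjusted p = 0.616). Neutrophil genes could hardly be judged, since 3 of 11 passed the filter, and *S100a9* had a log2 change of 0.77 ± 0.52 (SE; adjusted p = 0.323). *Lcn2*, which neutrophils share with the tubule, and *Csf3r* (1.78) rose. The number of macrophage and dendritic cell genes that rose was 26 within set A and 25 within set B. *Trem2* did not pass within set B.

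Chemokines, cytokines and adhesion genes rose with them. Of 39 tested 31 rose, 1 fell and 7 did not pass, with a median of 1.67. *Cxcl1* lay between 21.2 and 61.8 normalized counts at 14 M (median 26.9) and between 108 and 476 at 20 M (median 276), and it encodes an attractant of neutrophils. In limma its log2 change was 3.04 ± 0.35 (SE; adjusted p = 1.60e-08), and the ages did not overlap. Attractants of monocytes and lymphocytes that rose included *Ccl7* (3.67), *Ccl8* (3.87), *Ccl9* (3.43) and *Cxcl13* (3.75). The NF-kappa-B regulators *Nfkbiz* (1.89), *Relb* (1.97) and *Nfkbia* (1.24), the signal transducer *Stat3* (1.06) and the growth factors *Tgfb1* (1.38) and *Csf1* (1.57) rose. The member that fell was *Ccl28* (-1.50), a chemokine of mucosal epithelia. The number of members that rose was 22 within set A and 29 within set B. The genes *Il6* and *Tnf* did not pass the filter on low values, and *Ccl2* and *Cxcl10* were listed at 0 in every kidney library. *Nfkbia* did not pass within set A.

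Of 27 tested complement genes 20 rose, 1 fell and 6 did not pass, with a median log2 change of 1.61. *C3* lay between 61.5 and 665 normalized counts at 14 M (median 171) and between 797 and 4960 at 20 M (median 1970), and it encodes the central component. The fit gave a log2 change of 3.61 ± 0.46 (SE; adjusted p = 1.04e-07), and the ages did not overlap. The *C1qa*, *C1qb* and *C1qc* genes, which macrophages express for the first component, had log2 changes of *C1qa* (2.60), *C1qb* (2.60) and *C1qc* (2.40), and the receptors *C3ar1* (2.56) and *C5ar1* (2.33) and the integrin subunit *Itgam* (2.95) rose. The regulator *Cd55* had a log2 change of -0.38 ± 0.27 (SE; adjusted p = 0.35), and *C8g* (-1.47) of the membrane attack complex fell. In set A 15 members rose, and in set B 19.

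Genes of lymphocytes rose. Of 24 tested B and plasma cell genes 16 rose, 1 fell and 7 did not pass, with a median of 1.79. *Ighm* lay between 67.8 and 1449 normalized counts at 14 M (median 418) and between 344 and 11245 at 20 M (median 3401), and it encodes the heavy chain of IgM. It had a log2 change of 3.32 ± 0.58 (SE; adjusted p = 2.97e-05), and replicate 5 of 20 M, at 344, lay within the 14 M range. The IgG heavy chains *Ighg1* (3.95), *Ighg2b* (3.80), *Ighg2c* (3.49) and *Ighg3* (4.19) rose, while *Igha*, the heavy chain of IgA, had a log2 change of 0.89 ± 0.64 (SE; adjusted p = 0.361). *Igkc*, the kappa constant region, was listed at 0 in every kidney library. The IgG genes are near-identical to each other, so how reads divide among them is uncertain. The member that fell was *Ralgps2* (-0.73), which other kidney cells also express. Of 25 tested T and NK cell genes 19 rose and 6 did not pass, with a median of 1.98. *Cd3e* lay between 0.847 and 13.7 normalized counts at 14 M (median 6.47) and between 3.13 and 54.6 at 20 M (median 18.7), and it encodes a chain of the T cell receptor complex. Its log2 change was 1.66 ± 0.54 (SE; adjusted p = 0.0195), and the ages overlapped. *Il7r* (2.80), *Lck* (2.13), *Cd4* (2.15) and *Ctla4* (2.80) rose, and *Cd8a* had a log2 change of 0.67 ± 0.62 (SE; adjusted p = 0.499). The filter on low values can be met by the 20 M libraries alone, so low genes that rose could enter the test through that age. *Ctla4* lay between 0.924 and 6.97 normalized counts at 14 M and between 14.9 and 69 at 20 M. Of 34 listed T and NK cell genes 25 were tested, so the share that rose holds for these alone. With a filter of 50 normalized counts, 8 B and plasma cell genes and 4 T and NK cell genes passed as higher. That filter tested 12709 genes in place of 16839, so members with low values could drop out untested. The number of B and plasma cell genes that rose was 11 within set A and 10 within set B, and that of T and NK cell genes 5 within set A and 14 within set B. *Cd3e*, *Cd4* and *Ctla4* did not pass within set A, and *Ighg1* and *Cd3e* did not pass within set B. *Cd3e* did not pass with quantile normalization, and *Cd3e* did not pass with a pseudocount of 0.1. The call of *Cd3e* was lost without replicate 6 of 20 M.

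Interferon-induced and antigen-presentation genes rose together. Interferons act through STAT factors that bind short elements before the start of their target genes, and MHC class II genes share an X box and a Y box. The promoters of the named members of both lists were read from RefSeq (GRCm38.p6) for the 250 bases before the start, and entries were found for 4 of 8. The others were *Tap2*, *Nlrc5*, *Parp14* and *Oas2*. They are shown because these genes rose at 20 M, and capitals mark every match on either strand to GAAANNGAA (an interferon response element), TTCNNNGAA (a STAT site) or CTGATTGG (the Y box), which can overlap each other. They are written 5′ to 3′ in the direction of the gene. The region of *Ctss* is chr3:95526536-95526785, plus strand, that of *Stat2* is chr10:128270248-128270497, plus strand, that of *H2-Eb1* is chr17:34305617-34305866, plus strand, and that of *Samhd1* is chr2:157135097-157135346, minus strand.
Ctss: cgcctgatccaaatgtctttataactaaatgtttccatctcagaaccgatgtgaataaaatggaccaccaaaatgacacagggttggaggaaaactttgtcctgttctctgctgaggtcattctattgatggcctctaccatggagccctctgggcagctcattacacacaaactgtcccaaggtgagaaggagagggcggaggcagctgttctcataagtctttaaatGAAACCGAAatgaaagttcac
Stat2: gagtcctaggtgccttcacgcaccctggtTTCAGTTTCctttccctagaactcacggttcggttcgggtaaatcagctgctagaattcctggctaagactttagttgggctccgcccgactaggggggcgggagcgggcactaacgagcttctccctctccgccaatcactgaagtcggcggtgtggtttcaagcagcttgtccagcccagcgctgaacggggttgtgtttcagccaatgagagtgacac
H2-Eb1: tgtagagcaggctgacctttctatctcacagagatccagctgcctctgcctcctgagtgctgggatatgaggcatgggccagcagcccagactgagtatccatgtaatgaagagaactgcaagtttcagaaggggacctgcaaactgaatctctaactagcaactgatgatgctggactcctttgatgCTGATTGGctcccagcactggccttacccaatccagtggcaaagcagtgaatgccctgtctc
Samhd1: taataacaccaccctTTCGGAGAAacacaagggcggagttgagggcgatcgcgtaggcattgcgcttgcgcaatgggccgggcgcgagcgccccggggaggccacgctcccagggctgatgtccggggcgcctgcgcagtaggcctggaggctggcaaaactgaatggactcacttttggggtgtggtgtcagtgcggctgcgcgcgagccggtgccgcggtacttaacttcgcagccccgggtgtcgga

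*Ctss* held a match to the first motif 21 to 13 bases before its start, and *Stat2* held one 221 to 213 bases before. *H2-Eb1* held the Y box 62 to 55 bases before its start, and *Samhd1* held the STAT motif 235 to 227 bases before. Over the tested interferon genes with an entry, 20 of 44 promoters (45.5%) held GAAANNGAA, against 7.13% of all 32851 promoters of this length outside chromosome 18. Over the tested antigen-presentation genes 7 of 24 promoters (29.2%) held CTGATTGG, against 3.83% of all. TTCNNNGAA was in 10 of the 44 interferon promoters (22.7%), in 4 of 39 promoters of the proximal tubule carriers (10.3%) and in 7.02% of all. Over the carriers of the proximal tubule 2 of 39 promoters (5.13%) held GAAANNGAA, and a kappa B motif, GGGANTTCC, was in 2 of 35 chemokine promoters (5.71%) and in 2 of the 39 carrier promoters (5.13%), against 1.43% of all. Over the promoters of all tested genes the shares were 6.54% for GAAANNGAA, 5.99% for TTCNNNGAA, 4.91% for CTGATTGG and 1.87% for GGGANTTCC. These matches are a description of letters in the window.

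Of 48 tested interferon-induced genes 41 rose and 7 did not pass, with a median log2 change of 1.27. *Stat2* lay between 173 and 266 normalized counts at 14 M (median 197) and between 254 and 652 at 20 M (median 376), and it encodes a subunit of the factor that interferons activate. The estimated log2 change was 0.99 ± 0.17 (SE; adjusted p = 2.08e-05). The lowest 20 M value lay below the highest 14 M value, which was replicate 7. *Samhd1* lay between 198 and 531 normalized counts at 14 M (median 321) and between 495 and 1371 at 20 M (median 765), and it encodes a nucleotide-depleting enzyme with antiviral activity. This was a log2 change of 1.17 ± 0.19 (SE; adjusted p = 7.69e-06), and the ages overlapped. *Oas2* (2.09) and *Parp14* (1.47) also rose, and *Rsad2* had a log2 change of -0.30 ± 0.19 (SE; adjusted p = 0.299). Replicate 6 of 20 M was highest for the list, and without it 31 members passed. Within set A 8 members passed with a median of 0.95, and within set B 29 with 1.32.

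Of 26 tested antigen-presentation genes 22 rose and 4 did not pass, with a median of 1.38. *Ctss* lay between 294 and 743 normalized counts at 14 M (median 493) and between 1643 and 7202 at 20 M (median 2752), and it encodes the protease that clears the invariant chain from MHC class II. In limma its log2 change was 2.85 ± 0.25 (SE; adjusted p = 2.98e-11), and the ages did not overlap. *H2-Eb1* lay between 199.6 and 614 normalized counts at 14 M (median 413) and between 529 and 4404 at 20 M (median 1317), and it encodes a class II beta chain. The fit gave a log2 change of 1.91 ± 0.29 (SE; adjusted p = 2.70e-06), and replicate 7 of 20 M, at 529, lay within the 14 M range. The invariant chain gene *Cd74* (1.97), the class II activator *Ciita* (1.96), the class I activator *Nlrc5* (2.15), the class I genes *H2-K1* (1.38) and *H2-D1* (1.17) and the peptide transporter *Tap2* (1.26) rose. *H2-T22* had a log2 change of -0.20 ± 0.23 (SE; adjusted p = 0.603). In set A 15 members rose, and in set B 18. The class I light chain gene *B2m* was listed at 0 in every kidney library. *Ciita*, *H2-K1* and *H2-D1* did not pass within set A.

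Matrix genes rose. Of 56 tested 46 rose, 2 fell and 8 did not pass, with a median log2 change of 1.17. Of those that rose 21 did not overlap between ages, against 3.36% higher without overlap of all genes. *Col1a1* lay between 129.7 and 482 normalized counts at 14 M (median 178) and between 576 and 1790 at 20 M (median 1446), and it encodes a chain of type I collagen. It had a log2 change of 2.62 ± 0.24 (SE; adjusted p = 4.94e-11), and the ages did not overlap. The fibrillar collagens *Col1a2* (2.11) and *Col3a1* (2.28), *Fn1* (2.23), fibronectin, *Tnc* (2.41), tenascin, and the cross-linking enzymes *Lox* (2.19) and *Loxl2* (1.97) rose. *Mmp12* lay between 20.9 and 112 normalized counts at 14 M (median 46.4) and between 382 and 2084 at 20 M (median 1078), and it encodes macrophage elastase. Its log2 change was 4.14 ± 0.37 (SE; adjusted p = 4.81e-11), and the ages did not overlap. The type IV collagens of the glomerular basement membrane *Col4a3* (-0.71) and *Col4a4* (-0.67) fell, while *Col4a1* (0.80) and *Col4a2* (0.62), which are found in most basement membranes, rose. *Acta2* (1.07), the smooth muscle actin of myofibroblasts, and *Pdgfrb* (0.88), a receptor of pericytes, rose. In set A 35 members rose, and in set B 36. *Col4a3* and *Col4a4* did not pass within set A, and *Col4a3*, *Col4a1* and *Col4a2* did not pass within set B. *Col4a3* and *Col4a4* did not pass with quantile normalization, and *Col4a3* did not pass without a filter. *Col4a3* did not pass without a trended prior, and *Col4a3*, *Col4a1* and *Col4a2* did not pass without the libraries that held brain transcripts. *Col4a3*, *Col4a1* and *Col4a2* did not pass by edgeR without these libraries. *Col4a3* lost its call without any one of replicates 1, 2, 3, 7, 8 and 9 of 14 M or 1, 2, 3, 4 and 6 of 20 M.

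Genes of dividing cells rose, and so did part of a list linked with senescence. Of 39 tested cell cycle genes 27 rose and 12 did not pass, with a median of 1.37. *Top2a* lay between 55.9 and 183 normalized counts at 14 M (median 87.5) and between 273 and 792 at 20 M (median 438), and it encodes a topoisomerase made in dividing cells. The estimated log2 change was 2.19 ± 0.29 (SE; adjusted p = 2.83e-07), and the ages did not overlap. *Mki67* (1.96), *Cdk1* (1.96), *Birc5* (1.83), *Hells* (1.66) and *Mcm3* (1.67) rose, and *Pcna* had a log2 change of 0.51 ± 0.21 (SE; adjusted p = 0.0708). With a filter of 50 normalized counts, under which members with low values could drop out untested, 17 members passed. Within set A 15 passed and within set B 13. Of 33 tested senescence genes 17 rose, 3 fell and 13 did not pass, with a median of 0.52. *Cdkn1a* lay between 38.14 and 155 normalized counts at 14 M (median 76.6) and between 139 and 384 at 20 M (median 285), and it encodes the cell cycle inhibitor p21. This was a log2 change of 1.67 ± 0.33 (SE; adjusted p = 1.27e-04), and the ages overlapped, with the lowest 20 M value in replicate 4. *Cdkn2a*, the gene of the INK4A and ARF proteins, was below the filter and lay between 0 and 3.72 normalized counts at 14 M (median 1.03), with 4 values at 0, and between 1.87 and 14.2 at 20 M (median 8.68). Its difference of 1.93 on the log2(value + 1) scale had p = 0.00245 in an exact two-sided permutation test over the 16 libraries, unadjusted. *Gdf15* (1.43), *Plaur* (1.95) and *Cdkn2b* (1.52) rose, and *Igfbp3* (-1.49), *Igfbp4* (-0.81) and *Glb1* (-0.63) fell. In set A 12 senescence genes rose, and in set B 13. The list shares members such as *Spp1* and *Mmp12* with the injury and matrix lists. *Cdk1*, *Gdf15*, *Cdkn2b*, *Igfbp4* and *Glb1* did not pass within set A, and *Igfbp4* did not pass within set B. *Igfbp4* did not pass with quantile normalization, and *Igfbp4* did not pass without a filter. *Igfbp4* lost its call without any one of replicates 3, 4, 5, 6, 7, 8 and 9 of 14 M or 1, 2, 3 and 7 of 20 M.

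Genes that are higher in male than in female mouse kidney under androgens were lower at 20 M. Of 14 tested 13 fell, with a median of -1.63. *Slco1a1* lay between 813 and 7621 normalized counts at 14 M (median 3199) and between 200.3 and 3454 at 20 M (median 312), and it encodes an organic anion carrier. In limma its log2 change was -2.63 ± 0.46 (SE; adjusted p = 2.91e-05), and replicates 4 and 6 of 20 M lay within the 14 M range. *Kap* lay between 49823 and 94589 normalized counts at 14 M (median 81175) and between 7579 and 64282 at 20 M (median 24309), and it encodes the kidney androgen-regulated protein. The fit gave a log2 change of -1.65 ± 0.39 (SE; adjusted p = 0.00149), and the ages overlapped. *Gusb*, beta-glucuronidase, had a log2 change of 0.08 ± 0.18 (SE; adjusted p = 0.825). Several of these genes are also proximal tubule genes, so the list is not separate from the carriers. Within set A 8 members fell and within set B 11. Testosterone was not measured. *Kap* did not pass within set B.

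Of 21 tested genes of kidney hormones and their receptors 9 fell, 3 rose and 9 did not pass, with a median of -0.43. *Kl* lay between 3191 and 6255 normalized counts at 14 M (median 5845) and between 1026 and 5088 at 20 M (median 2094), and it encodes Klotho, the FGF23 co-receptor. It had a log2 change of -1.28 ± 0.22 (SE; adjusted p = 1.86e-05), and replicate 4 of 20 M, at 5088, lay within the 14 M range. *Egf* lay between 2568 and 10421 normalized counts at 14 M (median 8234) and between 911 and 5802 at 20 M (median 1642), and it encodes the epidermal growth factor precursor of the distal tubule. Its log2 change was -1.85 ± 0.29 (SE; adjusted p = 3.54e-06), and the ages overlapped. The vitamin D receptor *Vdr* (-1.08) and the deiodinase *Dio1* (-1.35) fell, and the growth factors *Igf1* (0.92) and *Hgf* (1.09) rose. Without replicate 7 of 20 M 5 members fell, and the number was 4 within set A and 8 within set B. *Dio1* and *Hgf* did not pass within set A, and *Igf1* did not pass within set B.

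Antioxidant and stress genes moved less as groups. Of 32 tested antioxidant genes 7 fell and 2 rose, with a median of -0.29, so 28.1% were called against 22.7% of all genes. *Cat* (-1.05), *Sod2* (-0.90), *Sod3* (-0.92) and *Ggt1* (-1.19) fell, *Mgst1* (0.80) and *Gsta1* (2.32) rose, and *Nfe2l2*, which encodes the regulator NRF2, had a log2 change of 0.38 ± 0.27 (SE; adjusted p = 0.362). With quantile normalization 4 antioxidant genes fell, and the number was 2 within set A and 5 within set B. Of 29 tested stress and immediate early genes 5 rose and 3 fell, with a median of 0.11. This is 27.6% called, near the 22.7% of all genes. *Atf3* (2.35) and *Junb* (1.32) rose, the heat shock genes *Hsph1* (-0.87) and *Hspa8* (-0.64) fell, and *Fos* had a log2 change of 0.69 ± 0.49 (SE; adjusted p = 0.348). Without replicate 7 of 20 M 3 stress genes rose, and the number was 2 within set A and 5 within set B. *Cat*, *Sod3*, *Ggt1*, *Hsph1* and *Hspa8* did not pass within set A, and *Sod3*, *Mgst1* and *Gsta1* did not pass within set B. *Cat* and *Hspa8* did not pass with quantile normalization.

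Lists of other organs were read in the same way. None of the 5 tested brain genes was called by limma, and their median change was -0.03. Of 11 liver genes the 3 fibrinogen genes *Fga* (1.25), *Fgb* (1.92) and *Fgg* (2.30) rose, *Alb*, albumin, had a log2 change of -0.43 ± 0.91 (SE; adjusted p = 0.815), and *Apoa1* had a log2 change of -0.46 ± 0.98 (SE; adjusted p = 0.816). Fibrinogen genes are also known from injured kidney. Of 8 adipocyte genes *Cfd* (1.61) and *Retn* (1.44) rose, each with its highest value in replicate 7 of 20 M, and *Adipoq* had a log2 change of 0.82 ± 0.62 (SE; adjusted p = 0.387). The testis gene *Smcp* (-2.17) fell, and the muscle list was called for *Pvalb* alone. Of the liver list 27.3% and of the adipocyte list 25% were called, against 22.7% of all genes. The part of surrounding fat in these results was not tested. *Fga* and *Retn* did not pass within set A, and *Fga*, *Fgb* and *Retn* did not pass within set B. *Retn* did not pass with quantile normalization, and *Fgb* did not pass by edgeR. *Retn* did not pass with the 14 and 20 M libraries alone. *Retn* lost its call without any one of replicates 1 and 4 of 14 M or 3 and 7 of 20 M.

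The 20 M mice differed among themselves. The level of a list was taken as the mean log2 value of its tested members minus the mean of the 14 M libraries. For tubule injury it ran from -0.31 to 0.57 (median -0.06) at 14 M and from 1.05 to 2.62 (median 2.13) at 20 M. Replicate 4 of 20 M was lowest for tubule injury (1.05), macrophages (1.44), matrix (0.86) and cell cycle (0.84), and its carriers were the least reduced (-0.24). Replicate 7 had the highest injury level (2.62) and the lowest carrier level (-2.19). Replicate 6 was highest for T and NK cells (3.52), interferon response (2.57) and macrophages (2.87). Replicate 5 was lowest for B and plasma cells (0.14). Among the 14 M mice replicate 7 was highest for tubule injury (0.57), macrophages (0.57) and matrix (0.54), below every 20 M library for each. Replicate 1 of 14 M, which held the most brain reads, had the lowest carrier level at that age (-0.63), and the part of those reads in it was not tested. Leaving out replicate 7 of 20 M gave 2913 genes, and leaving out replicate 4 gave 4377.

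The steps before and after were read from the same fit. They share the 14 M or the 20 M libraries with this comparison, except for the step from 3 to 8 M, so the values are given side by side. For tubule injury the median log2 change was 0.12 from 3 to 8 M, 0.15 from 8 to 14 M, 2.00 from 14 to 20 M and -1.44 from 20 to 26 M. For macrophages it was 0.08, 0.00, 2.34 and -1.25. For the carriers of the proximal tubule it was -0.07, 0.19, -1.11 and 1.03. From 20 to 26 M 23 injury genes fell, 17 macrophage genes fell and 27 carriers rose. How many of all tested genes passed in that step was not counted, so these counts have no share beside them. Over all genes called higher at 20 M against 14 M the median change from 20 to 26 M was -0.83. Over all genes called lower it was 0.66, and over all tested genes -0.05. Whether the lists differed in this from other called genes was not tested. *Havcr1* had a median of 472 normalized counts at 26 M (n = 5), *Lcn2* 175 and *Slc34a1* 17966. From 20 to 26 M the median change of the antigen-presentation list was -0.73, with 3 members that fell, and that of B and plasma cells was -0.84, with 1 that fell. The 26 M group holds other mice than the 20 M group, so no mouse was followed over time.

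**Figure D4:**
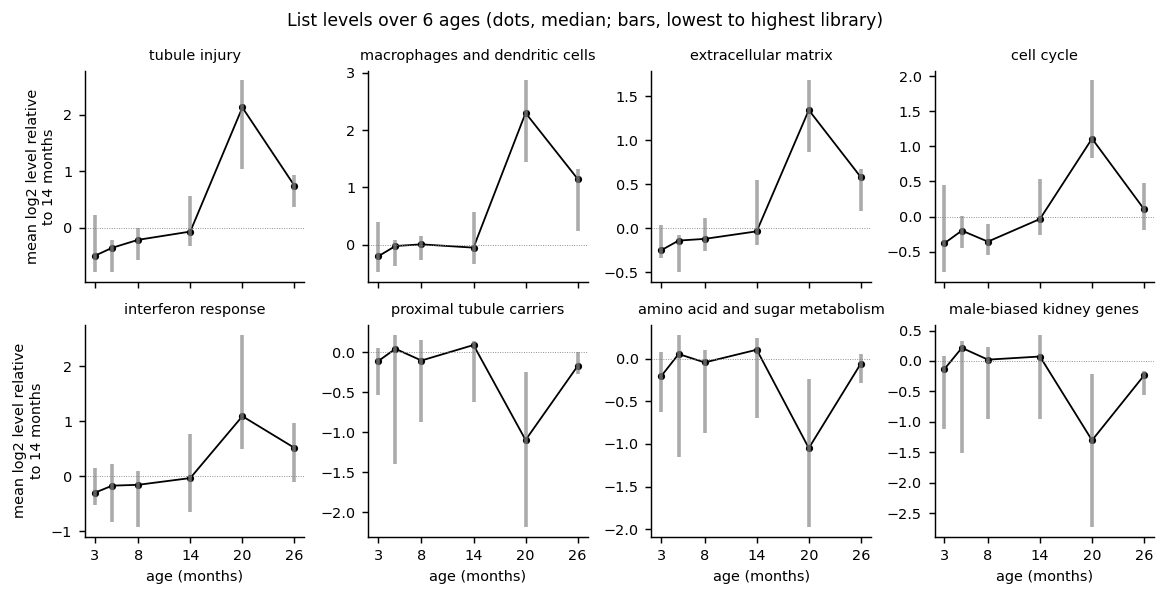
Level of 8 gene lists in kidney at 6 ages, relative to the mean of the 14 M libraries on the log2 scale; dots are medians over libraries and bars run from the lowest to the highest library. At 20 M the injury, macrophage, matrix, cell cycle and interferon lists stand highest and the carrier, metabolism and male-biased lists lowest, and the 26 M medians lie between the 14 M and 20 M medians.

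The same fit was made for other organs of the same mice. In heart 19 of 15842 genes passed (0.12%, with 913 at an unadjusted p of 0.05 and 61 by edgeR), and in skeletal muscle 34 of 17430 passed (0.195%, with 984 unadjusted and 26 by edgeR). In lung limma called 0 of 21257 genes (0%), 1403 passed unadjusted, and edgeR called 1. The median change of the injury list was 0.14 in heart, 0.01 in lung and -0.12 in skeletal muscle, against 2.00 in kidney. For macrophages it was 0.43, 0.12 and 0.31, and for matrix 0.30, -0.03 and -0.41. Age was the only term in these fits. The sets of mice, drawn from the first principal component of the heart libraries, were not a term in them. Each organ was normalized by itself, and the difference between organs was not tested.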

How the data were processed

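Kidney, heart, lung and skeletal muscle libraries of 45 male C57BL/6J mice at 6 ages were used. Per the labels and the methods of the study, oligo-dT mRNA libraries were read as single 111 bp reads, trimmed, aligned with HISAT2 2.1.0 to GRCm38 and counted on Ensembl 102. Per the file headers and values, the deposited signal is each gene's count divided by a DESeq2 size factor, set by the authors within each organ. Whole reads were recovered for 100% of values (relative tolerance 1e-06). The kidney table lists 51810 symbols, and 16839 with at least 10 normalized counts in 5 or more of 45 kidney libraries were tested.

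Differences of log2(value + 1) were tested with limma 3.58.1 (trended prior, R 4.3.3) in 1 fit of 6 age groups, contrast 20 minus 14 M, with Benjamini-Hochberg adjustment over all tested genes at 0.05. Fold changes are on the log2(value + 1) scale, which understates low genes. edgeR 4.0.16 and DESeq2 1.42.0 on the recovered reads, other filters, a pseudocount of 0.1, quantile normalization and leaving out single libraries were alternatives. Methods were tested on simulated data. Gene members and lists were chosen with earlier results of these data known. Genes were named as the 8 with the smallest p in each direction (log2 change of at least 1, mean of at least 50), the 4 with the smallest p in each list and 16 others, and further examples after their values were seen. Replicate numbers follow the order of the labels. Some genes are not reported here. Promoters came from RefSeq, with chromosome 18 left out. The mice are separate animals, and the day of collection (2 days in the study's methods) is not in the labels.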

Additional observations from a re-analysis of the deposited data

Results flagged for a closer look

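Of 318 groups of kidney libraries (a gene or list at 1 age), 46 (14.5%) held 1 library whose gap to its nearest neighbour was larger than Dixon's 95% limit for its share of the range, on the log2 scale. Chance gives about 1 in 20 groups. The groups share libraries and genes, so they are not independent. Values are normalized counts for genes and levels relative to the 14 M mean for lists, each set against the range of the other libraries of that age.

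Replicate 1 of 14 M gave 21 of the 46. It also held the largest amount of brain transcripts of the 16 libraries, 3189 on a scale of 1000000 reads. It was low for *Acox2* (186 against 378 to 561), *Kdr* (177 against 424 to 713), *Egf* (2568 against 5193 to 10420), *Kl* (3191 against 4837 to 6255), *Slco1a1* (813 against 2551 to 7621), *Sod2* (1731 against 2330 to 3150) and *Fgg* (39.2 against 111 to 266). It was also low for *Adipoq* (0 against 18.6 to 112), *Krt5* (1.86 against 9.24 to 25.8), *Upk1a* (1.86 against 15.7 to 32.3), *Lrp2* (11200 against 23470 to 28770) and *Umod* (308 against 1829 to 6782). Among the lists it was low for proximal tubule carriers (-0.625 against -0.00883 to 0.137), fatty acid oxidation (-0.947 against -0.139 to 0.302), amino acid and sugar metabolism (-0.697 against -0.102 to 0.245) and oxidative phosphorylation (-0.607 against -0.163 to 0.243). The lists of distal nephron and collecting duct (-0.579 against -0.0287 to 0.187), kidney hormones (-0.373 against -0.0881 to 0.174), male-biased kidney genes (-0.946 against -0.118 to 0.431) and antioxidant defence (-0.412 against -0.0892 to 0.17) were low there too. It was high for *Th* (16.8 against 0 to 1.12), a gene of catecholamine synthesis. Without replicate 1 of 14 M, 4243 genes passed in place of 3817.

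Replicate 4 of 20 M was low for *Ctsc* (424 against 798 to 1121), *Cd44* (207 against 519.6 to 680.0), *Cybb* (198 against 389 to 546), *Tnfrsf1b* (101 against 169.9 to 204), *Birc5* (30.8 against 79.6 to 125), *Vwf* (41 against 59.5 to 74) and *Junb* (72.8 against 182 to 284), and for the list of stress and immediate early (-0.123 against 0.26 to 0.43). It was high for *Ppargc1a* (1467 against 986 to 1163). Replicate 7 of 14 M was high for *Stat2* (266 against 173 to 203) and *Fn1* (345 against 104 to 149), and for the lists of complement (0.53 against -0.264 to 0.129), extracellular matrix (0.545 against -0.198 to 0.095) and cell cycle (0.53 against -0.26 to 0.0912). Replicate 7 of 20 M was high for *Cfd* (939.6 against 288 to 474) and *Retn* (472 against 28.5 to 84) and low for *Sod3* (1117 against 2376 to 3857).

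The remaining libraries stood apart singly. At 14 M, replicate 2 was high for *Vdr* (2671 against 1510 to 1945), replicate 3 low for *Birc5* (7.86 against 19.5 to 46.6), replicate 8 low for *Ighg2c* (1.7 against 14.9 to 66.8) and *Cybb* (45.8 against 77.7 to 126), and replicate 9 high for *Fgb* (395 against 28 to 92.4). At 20 M, replicate 5 was low for *Ighm* (344 against 2891 to 11240), replicate 6 high for the list of T and NK cells (3.52 against 1.19 to 2.18), and replicate 1 low for the list of podocytes (-0.257 against 0.196 to 0.367).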

How the results depend on the processing

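No paired analysis was possible because the mice of both ages were different animals and the labels carry no replicate numbers. Of the 140 tested genes named by rule 110 were called, 86 of them under every one of the up to 32 alternatives that tested them, and no called gene changed sign under any of these. Over all genes, 3879 were called by edgeR and 4143 by DESeq2, 3658 with a pseudocount of 0.1, 3573 without a filter, 3098 with a filter of 50 normalized counts, 3543 after quantile normalization and 3751 with the 14 and 20 M libraries alone. Leaving out 1 library gave between 2913 (20 M replicate 7) and 4377 (20 M replicate 4). Alternatives chosen after seeing the data were the brain and mouse-set settings. Within set A 1380 genes passed, 865 higher and 515 lower, and of all list members 254 passed, 187 higher and 67 lower, in place of 469, 306 and 163. Within set B 2901 genes passed. Fewer libraries entered the fit of either set than the main fit, and the cause of the lower count in set A was not tested. Of the 110 genes 20 did not pass within set A and 12 within set B. With the set of mice as a term 4159 genes passed. *Cdkn2a* lay below the filter of 10 normalized counts, and 3 of 11 neutrophil genes passed it. Strand, collection day and the region of the kidney are not given in the labels.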

Other observations

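Gene families were counted by symbol after the values were seen. Of 326 tested solute carriers (Slc) 99 were lower and 28 higher, against 10.1% and 12.6% of all genes, and 16 of 21 organic ion transporters of the Slc22 family were lower. Of 63 cytochromes P450 20 were lower and 6 higher. Of 58 immunoglobulin genes 42 were higher and 16 did not pass, with a median log2 change of 2.11. Of 22 C-type lectins, receptors of myeloid cells, 13 were higher and 1 lower, of 9 Toll-like receptors 6 were higher, and of 29 integrins 17 were higher and 1 lower. Of 17 claudins, proteins of tight junctions, 8 were higher and 1 lower. Of 75 ribosomal protein genes 6 were higher, of 47 proteasome genes 4 and of 332 zinc finger genes 16. V segments of immunoglobulins are near-identical to each other, so the counts of single segments are uncertain.

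Transcription factors of the tubule, chosen after their values were seen, included *Hnf4a* (-1.11), *Nr1h4* (-0.87), *Rxra* (-0.73) and *Esrra* (-0.51), which fell. *Pax2* had a log2 change of 0.52 ± 0.25 (SE; adjusted p = 0.139). The genes that were higher or lower at 20 M had nearly the same median transcript length (3238 and 3177 nt) and GC content (49.5% and 49.2%) as all tested genes (3159 nt and 49.2%).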
